A study of Mus musculus with 26 samples.

Results

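The mice labelled Mst1Gal3 overexpress Mst-1, the Hippo-pathway kinase that the gene Stk4 encodes, and lack galectin-3, the product of Lgals3. Their left ventricles were compared with those of wild-type mice to see which genes and pathways remained abnormal with both alterations present and which lay at wild-type level. The comparison uses 11 of the 26 RNA-seq libraries of the study, 5 labelled Mst1Gal3 and 6 labelled wt, and every one of the 15249 genes in the deposited count table. The other groups are MstTg, 7 libraries with Mst-1 overexpression alone, and Gal3Ko, 8 libraries with the galectin-3 knockout alone. They serve here to show where the double genotype differed from either alteration by itself. The background strain of all 4 groups is C57BL6, no treatment is given, and the Mst-1 mouse is described as a model of dilated cardiomyopathy. The sources used here give neither the promoter or cell type that drives Mst-1 nor the deleted part of Lgals3, and no ages or sexes of the mice. Nor do the labels say that the libraries of a group came from separate animals, so the p-values below measure the spread between these libraries.

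In the Hippo pathway, Mst-1 acts with LATS kinases to phosphorylate the coactivators YAP and TAZ, which keeps them out of the nucleus and away from the TEAD transcription factors. In heart muscle cells Mst-1 is also known to promote cell death. Galectin-3 is a secreted lectin that binds galactose-containing sugars. Macrophages make much of it, and it is widely studied in cardiac fibrosis. Failing ventricles are known to return to natriuretic peptides and other fetal transcripts, to lay down collagen, and to express less of the machinery that oxidises fatty acids.

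The overexpression was visible in the libraries, whereas the knockout could be checked only against MstTg. Stk4 was measured at 978, 1168, 954, 839.6 and 944 CPM (counts scaled to a common library size with TMM factors) in Mst1Gal3 replicates 1 to 5 against 22.4 to 26.1 CPM in wild type. Lgals3 stood at 2.54, 3.58, 4.13, 3.88 and 5.43 CPM in Mst1Gal3, 50.9 to 60.01 CPM in MstTg and 0.878 to 2.42 CPM in wild type. The log2 difference of Lgals3 between Mst1Gal3 and wild type was 1.27 ± 0.17 (SE), so reads on the gene exceeded the low wild-type level, and in Gal3Ko the level was 1.47 to 2.74 CPM (difference from wild type 0.41, adjusted p = 0.619). The comparison with wild type therefore does not show the knockout, and whether the reads fall in the deleted part cannot be read from counts per gene. Library totals ran from 20134061 to 27543943 counts in wild type and from 22329059 to 26218867 in Mst1Gal3 (exact permutation test, two-sided, p = 0.524). The mitochondrial genome accounted for 31.0% ± 2.36 (SD, n = 6) of the counts in wild type and 18.7% ± 2.96 (SD, n = 5) in Mst1Gal3, without overlap. The p was 0.00433 (exact permutation test, two-sided), and 0.00577 after adjustment over 4 library measures. For 5 against 6 libraries, 0.00433 is the smallest p that this two-sided test allows. The defining cardiomyocyte markers were abundant in every library, with a summed level of 97070 to 122400 CPM in wild type and 116000 to 135600 CPM in Mst1Gal3. Of the 10 markers, however, 7 were lower than wild type and 1 was higher (median -0.46). Their mean log2 CPM differed from the wild-type mean by -0.55 to -0.32 in Mst1Gal3 and by -0.04 to 0.02 in wild type, without overlap. The atrial genes Myl7, Myl4 and Sln summed to 33.05 CPM in wild-type replicate 5 against at most 3.745 in the other wild-type libraries. They summed to 126.6 CPM in Mst1Gal3 replicate 3 against at most 12.64 in the other Mst1Gal3 libraries. Below, both libraries with atrial genes means these 2. The sum also reached 35.36 CPM in MstTg and 122.9 CPM in Gal3Ko.

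About as many genes still differed from wild type as did not. In edgeR's quasi-likelihood test with Benjamini-Hochberg adjustment, 7406 of the 15249 genes (48.6%) differed between Mst1Gal3 and wild type at an adjusted p under 0.05. Of all genes, 3830 (25.1%) were higher and 3576 (23.5%) were lower, and 1066 of the higher and 514 of the lower ones changed at least 2-fold. A p above the threshold does not place a gene at wild-type level, so the 95% interval of each log2 difference was set against a band of 1.5-fold on either side of wild type. The interval lay wholly inside the band for 8041 genes (52.7%), which are called near wild type here. It lay wholly outside for 1997 genes (13.1%), 1225 above and 772 below, which are called displaced. For the other 5211 genes (34.2%) it crossed an edge, so these data leave them unresolved. Of the 7843 genes that did not pass the test, 5512 were near wild type and 2331 were unresolved. A further 2529 genes passed the test and were near wild type, which means a small difference measured precisely. Scaling to library totals in place of TMM factors, where the fewer mitochondrial reads of Mst1Gal3 raise all other genes, moved the median log2 difference of all genes from 0.02 to 0.19 and the higher share of the called genes from 51.7% to 74.2%. Where that scaling turned which of a pathway list's printed higher and lower counts was the larger, at least 1 count under it is given.

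The shortest account of where the double genotype stood is that many stretch, matrix and energy genes were displaced. None of the 44 genes on the interferon-stimulated list lay above the 1.5-fold band, and 24 of them were unresolved. This depends on the list's members, as the interferon-inducible Cxcl10, counted with the inflammatory mediators, stood above every wild-type library. Gene lists of pathways and cell types were used for this account, 61 in all, and each count is to be read against the percentages for all genes above. Against MstTg, 746 of the 15249 genes (4.89%) passed the same test, 387 higher and 359 lower in Mst1Gal3. Under library totals the higher share of those calls was 19.6% in place of 51.9%. The MstTg and Mst1Gal3 comparisons share the wild-type libraries, so their differences from wild type are given side by side only, and any statement that the 2 genotypes differ rests on the test of Mst1Gal3 against MstTg.

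**Figure D1:**
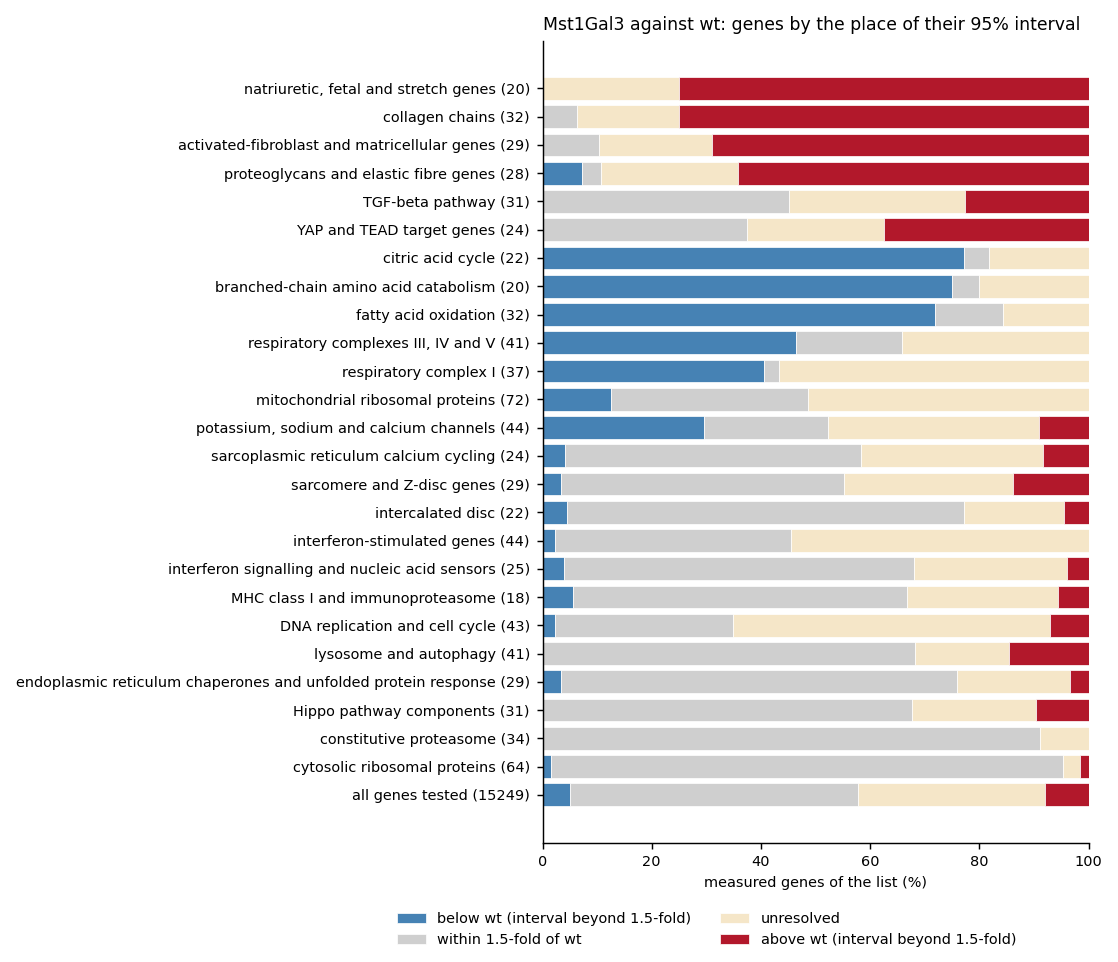
Share of each gene list below, within, unresolved against and above the 1.5-fold band around wild type, judged from the 95% interval of the log2 difference Mst1Gal3 minus wild type (x axis, percent of the list's measured genes, 1 bar per list and 1 for all genes). Of all 15249 genes, 52.7% lie within the band. The fetal and collagen lists lie mostly above it, fatty acid oxidation and the citric acid cycle mostly below it, and cytosolic ribosomal proteins almost wholly within it.

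The largest rises of Mst1Gal3 over wild type were in genes that were close to silent in wild-type ventricle. Mybph, a myosin-binding protein of striated muscle, had 0 to 3 counts per wild-type library and 713 to 1216 per Mst1Gal3 library. Muc15, a membrane mucin, had 0 to 2 against 173 to 279 counts, Atp1b4, of the sodium pump beta-subunit family, 0 to 2 against 195 to 262, and Chodl, chondrolectin, 0 to 2 against 172 to 300. Ces5a, a carboxylesterase, had 0 to 3 against 130 to 164 counts and Tdrd9, an RNA helicase known from germ cells, 0 to 3 against 171 to 200. With 3 or fewer counts in wild type, no fold is given for these genes. MstTg libraries held 589 to 1257 counts of Mybph, 173 to 319 of Muc15 and 348 to 783 of Chodl, while Gal3Ko libraries held 0 to 3, 0 to 2 and 0 to 4. The 4 other protein-coding genes among the largest rises had wild-type reads. Shisa3, a modulator of Wnt and FGF receptors, rose by 6.77 ± 0.12 (log2 ± SE; adjusted p = 1.34e-28), from 0.722 to 0.971 CPM to 87.7, 104, 89.2, 98.04 and 84.3 CPM. Ryr3, a ryanodine receptor that is scarce in normal ventricle, rose by 6.43 ± 0.18 (adjusted p = 5.01e-21), from 1.45 to 2.96 CPM to 195, 190.4, 188, 176 and 157 CPM. Syndig1 and Grin2a, both known from glutamatergic synapses, had 0 to 7 against 430 to 511 and 1 to 8 against 237 to 420 counts.

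The largest falls included ion channel, transport and lipid genes. Scn4b, a beta subunit of the voltage-gated sodium channel, fell from 50.6 to 100.3 CPM to 2.93, 3.67, 2.57, 3.62 and 4.32 CPM in Mst1Gal3 (-4.34 ± 0.25 log2 ± SE; adjusted p = 3.26e-13). Every Mst1Gal3 library lay below every wild-type library, and the fall was smaller than in MstTg (Mst1Gal3 minus MstTg 1.35 ± 0.31; adjusted p = 0.00985). Slc22a3, an organic cation transporter, fell by 4.97 ± 0.19 (adjusted p = 6.36e-20), from 8.7 to 12.3 to 0.515, 0.206, 0.189, 0.337 and 0.432 CPM. Also lower than wild type on the log2 scale were Clcn1, the skeletal muscle chloride channel (-4.59), Acsl6, an acyl-CoA synthetase (-4.16), and Tmem150c (-4.07). Further falls were those of Epn3, an epsin of endocytosis (-4.06), Slc9a2, a sodium-proton exchanger (-3.96), and Lrrc4b (-3.89). Lgi1 fell to 1 to 6 counts from 95 to 142, the water channel gene Aqp4 to 1 to 10 from 40 to 162, and the calcium channel gamma subunit Cacng6 to 1 to 4 from 17 to 56. For these 3, the lowest Mst1Gal3 library held 1 count, so a fold change would rest on single reads.

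Natriuretic, fetal and stretch genes remained displaced in the double genotype. Of the 20 measured genes on that list, 19 were higher and 1 was lower than wild type, 15 lay wholly above the 1.5-fold band and 0 lay within it. Their median log2 difference was 2.11, beside 2.23 in MstTg and 0.02 over all genes. Against MstTg none of the 20 passed edgeR's test, DESeq2's or limma-voom's, and 5 had an unadjusted p under 0.05 in edgeR. Averaged over the list, log2 CPM exceeded the wild-type mean by 2.2 to 2.5 in the 5 Mst1Gal3 libraries and by 2.04 to 2.56 in the 7 MstTg libraries, so the ranges overlapped.

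Nppa, which encodes atrial natriuretic peptide, was at 1071, 1604, 1506, 2103 and 1217 CPM in Mst1Gal3, 44.5 to 108 with a median of 74.8 CPM in wild type, and 1987 to 2664 with a median of 2254 CPM in MstTg. All 5 Mst1Gal3 libraries were above all wild-type libraries, and only replicate 4 lay inside the MstTg range. The rise over wild type was 4.35 ± 0.26 on the log2 scale (adjusted p = 7.67e-13), and the difference from MstTg was -0.62 ± 0.23 (adjusted p = 0.129). Its partner Nppb, for brain natriuretic peptide, was at 313, 466, 403, 539 and 409 CPM against 77.4 to 158 with a median of 132 CPM in wild type and rose by 1.72 ± 0.17 (adjusted p = 3.4e-09). Acta1, the skeletal actin that the fetal heart expresses, was at 3885, 4367, 3236, 4209 and 3575 CPM against 81.7 to 342 with a median of 199.8 CPM in wild type, a rise of 4.21 ± 0.38 (adjusted p = 1.66e-09). Myh7, the slow and fetal myosin heavy chain, was at 1104, 1063, 1053, 1214 and 812 CPM against 85.1 to 609.7 with a median of 265 CPM in wild type. That rise of 1.79 ± 0.31 (adjusted p = 4.09e-05) has a counterpart in Gal3Ko, where Myh7 was at 657 to 944 CPM and differed from wild type by 1.44 (adjusted p = 0.0191). Myh7 lies 7.6 Mb from Lgals3 on the same chromosome, so the knockout and its flanking strain haplotype cannot be told apart for it. Myh6, the adult myosin heavy chain, was near wild type at 27100, 27460, 25670, 28780 and 21790 CPM against 20320 to 26470 with a median of 21980 CPM (log2 difference 0.21 ± 0.09, adjusted p = 0.0519), and it was higher than in MstTg by 0.41 (adjusted p = 0.00298). DESeq2 (0.20, adjusted p = 0.0385) and limma-voom (0.21, adjusted p = 0.0424) called Myh6 higher than wild type, as did edgeR under library totals (0.38), without the genes of the mitochondrial genome (0.23), over genes of at least 1 CPM (0.22), without wild-type replicate 5 (0.26), without Mst1Gal3 replicate 5 (0.27) and without both libraries with atrial genes (0.27). Myh6 adjoins Myh7, and in Gal3Ko it differed from wild type by 0.32 (adjusted p = 0.0955).

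The genes of the fetal and stretch list with the smallest p were regulators and scaffold proteins of stressed muscle. Fhl1, a LIM protein of the titin stretch complex, was at 1188, 1211, 1016, 1106 and 1135 CPM in Mst1Gal3 against 77.99 to 87.6 with a median of 81.9 CPM in wild type, with no overlap and a rise of 3.79 ± 0.08 (adjusted p = 2.7e-26). Uchl1, a deubiquitinating enzyme better known from neurons, was at 71.7, 83.8, 71.3, 100.5 and 66.1 CPM against 3.88 to 5.47 with a median of 4.23 CPM and rose by 4.15 ± 0.13 (adjusted p = 8.76e-21). Xirp2, an actin-binding protein of the intercalated disc, rose by 3.47 ± 0.11 and Nes, the intermediate filament nestin, by 3.09 ± 0.10. The differences of these 4 genes from MstTg, from -0.04 for Xirp2 to 0.20 for Fhl1, did not pass the test.

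Sarcomere and Z-disc genes were mixed. Of 29, 12 were higher and 9 lower than wild type, though 15 were near wild type and only 4 lay above the band and 1 below it. Under library totals the number of lower genes was 3. Myom3, an M-band protein of slow and fetal muscle, was at 148, 126, 130.3, 139 and 116 CPM against 2.103 to 3.05 with a median of 2.59 CPM in wild type, an increase of 5.69 ± 0.12 (adjusted p = 9.46e-26). Nrap, which anchors nascent myofibrils, rose by 1.68 ± 0.08 and Neb, nebulin, by 3.17 ± 0.22. In contrast Nebl, the cardiac nebulette, was at 0.03 (95% interval -0.12 to 0.17) and Actn2, the Z-disc alpha-actinin, at 0.05 (95% interval -0.11 to 0.20), both near wild type. Tnnc1, cardiac troponin C, rose by 0.44 ± 0.10 over wild type and exceeded MstTg by 0.51 (adjusted p = 8.96e-04). Myot, the Z-disc protein myotilin, exceeded MstTg by 0.64 (adjusted p = 0.00654).

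Fibrosis genes remained high, at levels that were in part lower than with Mst-1 overexpression alone. Of 32 collagen chain genes, 26 were higher and 0 lower than wild type, and 24 lay wholly above the 1.5-fold band. Of 29 activated-fibroblast and matricellular genes, 24 were higher and 0 lower, with 20 above the band. Of 28 proteoglycan and elastic fibre genes, 26 were higher and 2 lower, with 18 above and 2 below it. The median log2 differences of these 3 lists were 1.18, 1.52 and 1.06, beside 1.31, 1.79 and 1.19 in MstTg. Against MstTg, 7 of the activated-fibroblast genes were lower and 0 higher, the lower count being 13 by limma-voom and 12 with only the 2 groups fitted. Of the proteoglycan and elastic fibre genes, 4 were lower and 0 higher, or 7 lower with only the 2 groups fitted. Averaged over the activated-fibroblast list, log2 CPM exceeded the wild-type mean by 1.56 to 1.83 in Mst1Gal3 and by 1.855 to 2.2 in MstTg. The library ranges narrowly did not overlap. For collagen chains the ranges were 1.42 to 1.75 and 1.56 to 1.94 and did overlap. In these whole-ventricle libraries, more fibroblasts and more RNA per fibroblast cannot be told apart. The summed level of the 15 quiescent-fibroblast markers was 2767 to 3214 CPM in Mst1Gal3 against 1278 to 1821 CPM in wild type, and its part in the matrix genes was not tested.

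Postn, the matricellular protein periostin that activated fibroblasts secrete, was at 154, 265, 264, 318 and 256 CPM in Mst1Gal3, 30.8 to 66.3 with a median of 37.6 CPM in wild type and 360.5 to 476 with a median of 418 CPM in MstTg. Every Mst1Gal3 library was above wild type. The rise was 2.57 ± 0.17 (adjusted p = 3.3e-12), and the level was 0.76 lower than in MstTg on the log2 scale (adjusted p = 0.00593). Thbs4, thrombospondin 4, was at 196, 316, 274, 304 and 251 CPM, 3.597 to 7.99 with a median of 6.19 CPM in wild type and 382 to 646 with a median of 463 CPM in MstTg. It rose by 5.5 ± 0.21 over wild type (adjusted p = 2.23e-17) and differed from MstTg by -0.84 (adjusted p = 0.002397). Cilp, a matrix protein that binds TGF-beta, was at 314, 416, 385, 429.8 and 347 CPM against 10.3 to 35.4 with a median of 16.7 CPM in wild type and rose by 4.24 ± 0.22 (adjusted p = 2.32e-14), with no call against MstTg (-0.57 ± 0.19, adjusted p = 0.0848). Fstl3, a secreted antagonist of activins, rose by 2.83 ± 0.13 and Itgbl1, an integrin beta-like protein, by 1.91 ± 0.11. Exceptions on the list were near wild type, namely the collagen receptor gene Ddr2 at 0.26 (95% interval 0.12 to 0.40) and the thrombospondin gene Thbs2 at -0.24 (-0.49 to 0.01), which was called lower without wild-type replicate 6 (-0.31). Wisp1, a matricellular CCN protein, was 0.90 lower than in MstTg (adjusted p = 1.2e-04) and still 2.58 ± 0.18 above wild type.

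Among the collagens, the fibril-forming chains of scar, Col1a1 and Col3a1, differed in size of change. Col1a1 was at 426, 484, 494, 736 and 456 CPM in Mst1Gal3 against 97.9 to 213 with a median of 135 CPM in wild type and rose by 1.9 ± 0.18 (adjusted p = 3.46e-09). Col3a1 was at 351, 399, 432, 571 and 419 CPM against 185 to 294 with a median of 216 CPM and rose by 0.96 ± 0.13 (adjusted p = 2.23e-07). Neither passed the test against MstTg (Col1a1 -0.27 ± 0.18, adjusted p = 0.461; Col3a1 -0.32 ± 0.12, adjusted p = 0.139). The smallest p values belonged to Col22a1 (4.41 ± 0.24), known from tissue junctions, Col15a1 (1.3 ± 0.08), of the basement membrane zone, Col12a1 (4.57 ± 0.25), which decorates collagen fibrils, and Col8a1 (2.15 ± 0.14), a short-chain collagen. Col14a1, another fibril-associated chain, was at 37.01, 45.3, 56.6, 49.7 and 48.99 CPM in Mst1Gal3, 11.7 to 25.9 with a median of 17.2 CPM in wild type and 74.4 to 98.7 with a median of 88.5 CPM in MstTg. It rose by 1.46 ± 0.14 over wild type and was 0.88 lower than in MstTg (adjusted p = 5.49e-05). Col6a6, a chain of beaded-filament collagen, was unresolved against wild type (-0.30, 95% interval -0.70 to 0.10) and 1.03 higher than in MstTg (adjusted p = 0.001403). Col23a1, a membrane collagen, was near wild type at 0.02 (-0.30 to 0.35). Of the collagen chains, 8 were lower and 1 higher than in MstTg, and the number lower was 4 without Mst1Gal3 replicate 1 and 5 without MstTg replicate 4.

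Genes of matrix processing and growth factor signalling also remained displaced in part. Of 33 collagen-modifying enzymes, metalloproteinases and their inhibitors, 21 were higher and 5 lower than wild type, with 8 near it. Timp1, an inhibitor of metalloproteinases, was at 4.003, 5.35, 5.04, 4.55 and 4.604 CPM against 0.462 to 1.24 with a median of 0.6103 CPM in wild type, a rise of 2.63 ± 0.19 (adjusted p = 2.03e-13). Mmp2, a gelatinase, rose by 1.68 ± 0.09 and was 0.40 below MstTg (adjusted p = 0.00304), Mmp23 rose by 2.18 ± 0.09, and Pcolce, an enhancer of procollagen processing, by 1.42 ± 0.10. Loxl2, a collagen-crosslinking oxidase, was 1.26 above wild type and 0.73 below MstTg (adjusted p = 3.72e-04). The protease genes Adamts5 (-0.06, -0.30 to 0.17) and Mmp11 (0.12, -0.07 to 0.31) were near wild type. Of 31 TGF-beta pathway genes, 18 were higher and 4 lower, and 14 were near wild type. Without wild-type replicate 3, 4 or 5 or Mst1Gal3 replicate 3 or 4 the lower count was 2, without Mst1Gal3 replicate 5 it was 1, and under library totals it was 0, with 12 displaced genes in place of 7. Ligand genes with the smallest p rose, with Tgfb2 at 1.81 ± 0.08, Tgfb3 at 1.46 ± 0.08 and Inhba, an activin subunit, at 3.25 ± 0.14, whereas the receptor gene Acvr2a (-0.01, -0.16 to 0.13) and the ubiquitin ligase gene Smurf1 (0.10, -0.01 to 0.22) were near wild type. Tgfbr1, the type I receptor, rose by 0.82 ± 0.07 and was 0.31 below MstTg (adjusted p = 0.00487). Of 24 integrin genes, 12 rose and 4 fell, with Itga5 at 1.45 ± 0.09, Itga9 at 1.02 ± 0.07 and Itgav at 0.85 ± 0.06 among the smallest p values. Of 29 BMP and Wnt modulators, 11 rose and 4 fell, the rises including the Wnt receptors Fzd2 (2.41 ± 0.12) and Fzd1 (1.01 ± 0.08) and the ligand Bmp4 (1.26 ± 0.12). Under library totals the lower genes numbered 3 among the matrix enzymes, 1 among the integrins and 2 among the BMP and Wnt modulators.

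Transcripts of energy metabolism remained low across the double-genotype libraries. None of the 32 fatty acid oxidation genes was higher than wild type and 30 were lower, 23 of them wholly below the 1.5-fold band (median -1.05, beside -1.29 in MstTg). All 22 citric acid cycle genes were lower, 17 below the band (median -0.88, beside -1.09). All 37 measured subunit and assembly genes of respiratory complex I were lower, 15 below the band (median -0.73, beside -0.95). For complexes III, IV and V, 37 of 41 were lower and 0 higher (median -0.72). The 7 measured respiratory genes of the mitochondrial genome were all lower, led by mt-Cytb (-1.07 ± 0.11) and mt-Co1 (-1.22 ± 0.13). Under library totals, which count the missing mitochondrial reads as a rise of everything else, 29 of the fatty acid oxidation genes, 21 of the citric acid cycle genes and 35 of the complex I genes were still lower. Fewer of them then lay wholly below the band, 11 of the citric acid cycle, 8 of complex I and 8 in place of 19 of complexes III, IV and V, and 9 complex I genes were near wild type in place of 1. The mitochondrial share of counts, 7 of 10 cardiomyocyte markers and 11 of 15 endothelial markers also fell in these libraries, and their part in these lists was not tested.

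Hadh, a dehydrogenase of the beta-oxidation spiral, was at 158, 138, 133, 156 and 151 CPM in Mst1Gal3 against 443 to 518 with a median of 467 CPM in wild type, and every Mst1Gal3 library was below every wild-type library. It fell by 1.7 ± 0.06 (log2 ± SE; adjusted p = 4.99e-20). Acaa2, the thiolase of the same spiral, was at 203, 190.2, 169, 183 and 206 CPM, 577 to 680.3 with a median of 584 CPM in wild type and 112 to 160.3 with a median of 131 CPM in MstTg. It fell by 1.66 ± 0.07 below wild type and was 0.48 higher than in MstTg (adjusted p = 2.76e-05). Eci1 and Etfdh, which handle unsaturated fatty acids and pass electrons to ubiquinone, fell by 1.57 ± 0.07 and 1.44 ± 0.07. Cpt1a, the liver form of the carnitine gate, was near wild type at -0.20 (-0.44 to 0.05), as was the acyl-CoA dehydrogenase gene Acad10 at -0.20 (-0.42 to 0.02), which was called lower without wild-type replicate 2 (-0.27). Sdha, the catalytic subunit of succinate dehydrogenase, was at 459, 470.1, 439, 452 and 418 CPM against 835 to 1074 with a median of 948 CPM and fell by 1.07 ± 0.06 (adjusted p = 7.82e-16). The succinyl-CoA ligase genes Suclg2 and Suclg1 fell by 1.33 ± 0.06 and 1.0 ± 0.06, and Dlst, of the oxoglutarate dehydrogenase complex, by 0.98 ± 0.06. Pcx, pyruvate carboxylase, fell by 0.32 with an interval inside the band (-0.48 to -0.16), a call that was lost under library totals.

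Ndufa9, an accessory subunit of complex I, was at 120.4, 123, 107, 122 and 126 CPM against 255 to 294 with a median of 267 CPM in wild type and fell by 1.17 ± 0.06 (adjusted p = 1.68e-17). Its 5 Mst1Gal3 values were all below the wild-type range. Ndufa10, Ndufs1 and Ndufs3 fell by 1.03 ± 0.06, 0.93 ± 0.06 and 0.85 ± 0.06, and Ndufb3 fell by 0.26 and stayed inside the band (-0.44 to -0.08), a call that was lost under library totals (-0.09), without both libraries with atrial genes (-0.24), and without Mst1Gal3 replicate 1 (-0.21) or replicate 2 (-0.22). Cox7a1, the muscle form of a cytochrome oxidase subunit, was at 127, 134, 130.3, 187 and 150.3 CPM, 335 to 404 with a median of 371 CPM in wild type and 98.6 to 120.4 with a median of 102 CPM in MstTg. It fell by 1.35 ± 0.09 and was 0.45 above MstTg (adjusted p = 0.00137). Atp5a1 and Atp5o, of ATP synthase, fell by 0.95 ± 0.07 and 0.91 ± 0.06. The cytochrome oxidase genes Cox8a (0.03, -0.14 to 0.20) and Cox6a1 (0.01, -0.22 to 0.25) were near wild type.

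The fall in transcript level differed in size from that in MstTg for some of these energy genes. Against MstTg, 15 of the 32 fatty acid oxidation genes and 16 of the 37 complex I genes were higher in Mst1Gal3 and none was lower, where 387 of all 15249 genes were higher. These counts depended on the libraries and the scaling. For fatty acid oxidation the count was 6 without Mst1Gal3 replicate 1, 8 without replicate 2, 8 without replicate 4 and 4 under library totals. For respiratory complex I it was 2 without Mst1Gal3 replicate 4, from 8 to 10 without MstTg replicate 1, 2, 4, 6 or 7, and 2 under library totals. Averaged over complex I, log2 CPM differed from the wild-type mean by -0.82 to -0.52 in Mst1Gal3 and -1.1 to -0.78 in MstTg, and the ranges overlapped.

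**Figure D2:**
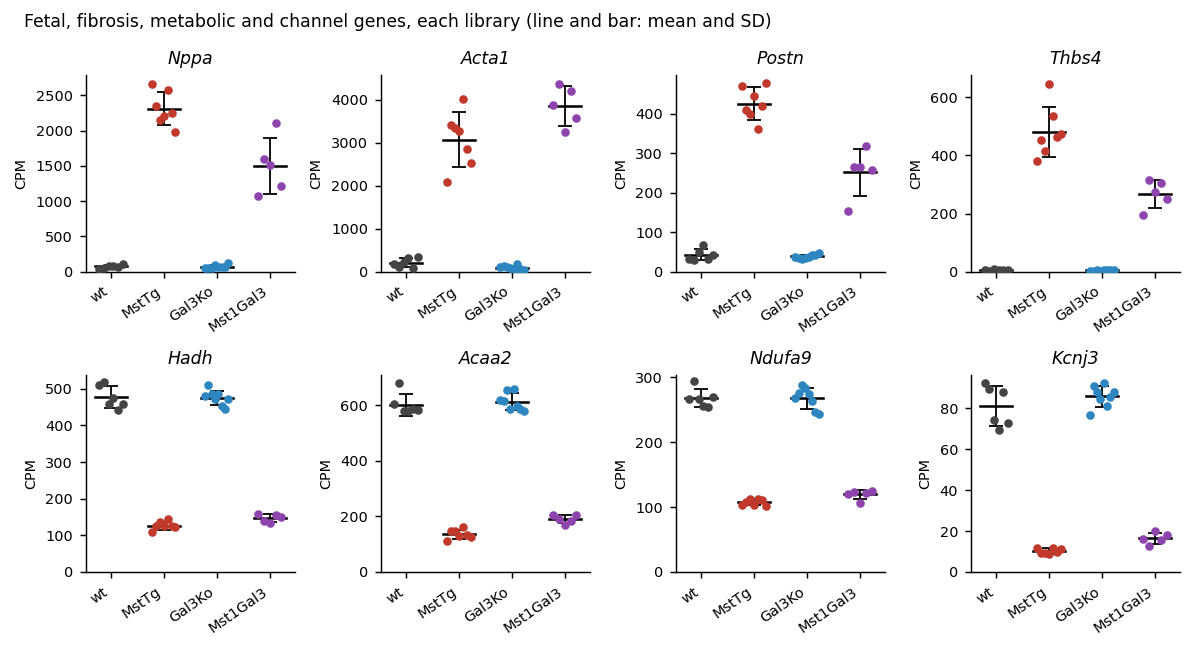
CPM per library (y axis) of Nppa, Acta1, Postn, Thbs4, Hadh, Acaa2, Ndufa9 and Kcnj3 in wt, MstTg, Gal3Ko and Mst1Gal3 (x axis), 1 point per library, with a line at the group mean and a bar of 1 SD. In the Mst1Gal3 column the first 4 genes stand above every wild-type library and the last 4 below every one.

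The controllers and the other fuels followed unevenly. Ppargc1a, the coactivator of mitochondrial biogenesis, was at 72.6, 78.1, 70.7, 61.3 and 71.5 CPM against 116 to 155 with a median of 138 CPM in wild type and fell by 0.96 ± 0.09 (adjusted p = 5.35e-11). Ppara, the nuclear receptor of fatty acid catabolism, fell by 1.18 ± 0.09 and its partner Rxrg by 1.26 ± 0.08, and Rxrg was 0.46 above MstTg (adjusted p = 4.62e-04). Of the 30 metabolic regulators, 17 were lower, 3 higher and 17 near wild type, Prkag2, a subunit of AMP kinase, being at -0.07 (-0.20 to 0.06). Of 30 fatty acid uptake and storage genes, 22 were lower, including Vldlr, the VLDL receptor (-1.32 ± 0.06), and Dgat2, of triglyceride synthesis (-1.48 ± 0.09). Branched-chain amino acid catabolism fell in 19 of 20 genes (median -0.99), with Mccc2 at -1.31 ± 0.06 and Aldh6a1 at -1.3 ± 0.07. Of 28 glycolysis and glucose uptake genes, 18 were lower, 3 higher and 11 near wild type. Slc2a1, the glucose transporter of the fetal heart, rose by 1.69 ± 0.08, whereas Slc2a12 fell by 2.38 ± 0.13 and the muscle enolase Eno3 by 1.29 ± 0.08. Of 13 pyruvate dehydrogenase and import genes, 11 were lower, Pdhx by 1.17 ± 0.08 and Mpc2 by 0.97 ± 0.07. Of 20 glycogen genes, 12 were lower, including the synthase Gys1 (-0.94 ± 0.07), and 4 higher, a number that was 2 without Mst1Gal3 replicate 2. Ckm, muscle creatine kinase, was at 505, 552, 397, 517 and 549.5 CPM against 1324 to 1618 with a median of 1444 CPM and fell by 1.54 ± 0.10 (adjusted p = 4.14e-14).

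Ppp1r3e, a glycogen-targeting phosphatase subunit, and the clock output gene Hlf were lower in the double genotype than in wild type and also lower than in MstTg. Ppp1r3e, which lies within 20 Mb of Lgals3 on chromosome 14, differed from wild type by -1.27 ± 0.19 (adjusted p = 1.7e-06) and from MstTg by -1.51 ± 0.19 (adjusted p = 3.1e-06), while MstTg minus wild type was 0.24 and Gal3Ko minus wild type was -1.7 (adjusted p = 3.73e-07). For this gene the knockout and the strain haplotype flanking it cannot be told apart. Hlf differed from wild type by -1.28 ± 0.28 (adjusted p = 4.36e-04) and from MstTg by -1.03 ± 0.27 (adjusted p = 0.0244). Of the 19 circadian clock genes, 14 were unresolved and 3 near wild type. The time of day at which tissue was collected is not among the labels, and its part in the clock genes was not tested.

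Channel genes were more often lower than higher, while calcium-handling genes were divided. Of 44 potassium, sodium and calcium channel genes, 25 were lower and 8 higher than wild type, 13 below and 4 above the band. Kcnj3, a subunit of the acetylcholine-activated potassium channel, was at 16.3, 12.6, 19.9, 15.4 and 18.1 CPM in Mst1Gal3, 69.6 to 92.3 with a median of 81.2 CPM in wild type and 8.82 to 11.9 with a median of 9.78 CPM in MstTg. It fell by 2.3 ± 0.10 (adjusted p = 2.07e-18) and was 0.69 above MstTg (adjusted p = 2.75e-05). Kcnip2, the partner of the transient outward channel, fell by 1.88 ± 0.09, Kcnv2 by 2.24 ± 0.12 and the sodium channel Scn4a by 2.89 ± 0.14. The inward rectifier gene Kcnj12 (0.02, -0.19 to 0.22) and the calcium channel subunit Cacna2d1 (0.10, -0.03 to 0.23) were near wild type. Atp2a2, the calcium pump SERCA of the sarcoplasmic reticulum, was at 8920, 9621, 8168, 9042 and 7757 CPM against 13480 to 14990 with a median of 13780 CPM in wild type and fell by 0.69 ± 0.07 (adjusted p = 1.79e-09). Hrc, a calcium-binding protein of that organelle, was at 292, 287, 278, 281 and 261 CPM against 632 to 739.6 with a median of 656 CPM, fell by 1.27 ± 0.07 and was 0.29 above MstTg (adjusted p = 0.00361). Casq2, calsequestrin, was near wild type at -0.05 (-0.18 to 0.08), and Camk2d, the calcium-dependent kinase, rose by 0.53 ± 0.05. Of the 24 genes of that list 9 were lower, 6 higher, 13 near wild type and 3 displaced, shares close to those of all genes. Under library totals 6 were lower and 7 higher.

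Signalling and junction genes were divided. Of 31 adrenergic, cyclic AMP and phosphodiesterase genes, 10 were higher and 13 lower, the lower number being 5 under library totals. Pde5a and Pde10a, which degrade cyclic nucleotides, rose by 2.17 ± 0.09 and 1.85 ± 0.10, Grk5, a receptor kinase of failing hearts, by 1.43 ± 0.08, and Pde4d and Pde4a fell by 1.03 ± 0.06 and 1.08 ± 0.08. Pde4b was near wild type at 0.01 (-0.17 to 0.18). Of 22 intercalated disc genes, 16 were near wild type, including plakoglobin, Jup (-0.01, -0.17 to 0.15), and desmoplakin, Dsp (0.03, -0.10 to 0.17), while desmin, Des, rose by 1.5 ± 0.09. Of 37 renin-angiotensin, calcineurin and hypertrophic signalling genes, 22 were near wild type. On that list 9 were higher and 13 lower, or 14 and 8 under library totals. Rcan1, a calcineurin feedback gene, rose by 2.02 ± 0.15 and Ace, the angiotensin-converting enzyme, by 1.33 ± 0.09. Mme, the peptidase neprilysin, fell by 2.57 ± 0.18 and was 1.17 above MstTg (adjusted p = 6.34e-04).

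The listed interferon-stimulated genes did not, as a list, stand above wild type in the double genotype, and most were lower there than with Mst-1 overexpression alone. Type I interferons induce these genes through a factor complex that contains IRF9 and binds the interferon-stimulated response element, and many of the products restrict viruses. The windows upstream of 3 listed genes and of a chemokine gene with a contrasting pattern are shown with letters of that element marked. In the RefSeq promoter table of build GRCm38.p6, the letters GAAANNGAA were read on both strands with overlapping matches counted. They occurred in 21 of 33 promoter windows of the listed interferon-stimulated genes (63.6%) and in 8.56% of all 32851 windows of 300 bases. Those 33 windows belong to 31 of the 44 listed genes, and the other genes had none under their symbol. The windows printed here are the 250 bases before the annotated start, 5′ to 3′ on the gene's strand, and capitals mark matches on either strand, adjoining matches running together. Ifit3, Isg15 and Cxcl10 were chosen after their values had been seen.
Ifit1 (chr19:34640639-34640888, plus strand): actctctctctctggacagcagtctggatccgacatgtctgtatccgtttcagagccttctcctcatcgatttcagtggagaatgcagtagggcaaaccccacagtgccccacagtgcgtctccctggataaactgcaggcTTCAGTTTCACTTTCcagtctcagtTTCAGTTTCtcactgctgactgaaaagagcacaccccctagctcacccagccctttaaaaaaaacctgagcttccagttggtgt

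Ifit3 (chr19:34583279-34583528, plus strand): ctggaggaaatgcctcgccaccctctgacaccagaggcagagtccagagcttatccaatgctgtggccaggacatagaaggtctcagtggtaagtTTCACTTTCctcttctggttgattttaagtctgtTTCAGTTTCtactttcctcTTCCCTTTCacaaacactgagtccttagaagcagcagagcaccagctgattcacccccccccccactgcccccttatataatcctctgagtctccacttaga

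Isg15 (chr4:156200819-156201068, minus strand): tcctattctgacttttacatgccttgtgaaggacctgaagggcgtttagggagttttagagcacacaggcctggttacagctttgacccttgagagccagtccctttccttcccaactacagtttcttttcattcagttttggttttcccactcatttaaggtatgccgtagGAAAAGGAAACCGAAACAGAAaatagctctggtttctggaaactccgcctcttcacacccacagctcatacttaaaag

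Cxcl10 (chr5:92348890-92349139, minus strand): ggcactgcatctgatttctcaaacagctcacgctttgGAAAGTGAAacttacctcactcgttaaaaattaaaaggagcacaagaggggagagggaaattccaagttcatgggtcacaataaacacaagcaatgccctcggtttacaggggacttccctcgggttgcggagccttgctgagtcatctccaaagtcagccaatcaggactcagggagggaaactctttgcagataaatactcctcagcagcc
Ifit1, Ifit3 and Isg15 each hold 3 matches and Cxcl10 holds 1. Among the other listed interferon-stimulated genes, only Ifit3b held 3 in its promoter window. Gbp2, Gbp7, Ifi44, Igtp, Rsad2, Samd9l and Trim25 held 1, others held 2, and some windows held none. The printed windows therefore do not stand for the list, and match number was not tested against expression. A match is a stretch of letters and not a measured binding site.

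Of 44 interferon-stimulated genes, 1 was higher and 13 were lower than wild type. None lay above the 1.5-fold band, 1 lay below it, 19 were near wild type and 24 were unresolved. For the unresolved genes these data cannot say that the level is within 1.5-fold of wild type. The median log2 difference from wild type was -0.20, beside 0.77 in MstTg. Against MstTg, 40 of the 44 were lower and none was higher, where 359 of all 15249 genes were lower. Over the alternative settings that number ran from 37 to 42. Averaged over the list, log2 CPM relative to the wild-type mean was -0.30 to -0.07 in Mst1Gal3, -0.17 to 0.25 in wild type and 0.43 to 1.34 in MstTg. In Gal3Ko it was -0.33 to 0.03, so the Mst1Gal3 range lay inside that of the knockout alone. No Mst1Gal3 library reached the lowest MstTg library. Under library totals, 6 of the genes were higher and 6 lower than wild type.

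Irf7, the transcription factor that amplifies the interferon response, was at 6.103, 6.26, 4.62, 5.73 and 5.11 CPM in Mst1Gal3, 5.303 to 9.39 with a median of 5.73 CPM in wild type and 12.8 to 35.3 with a median of 21.8 CPM in MstTg. The Mst1Gal3 and wild-type ranges overlapped, and the MstTg range lay above both. The difference from wild type was -0.17 ± 0.22 (adjusted p = 0.552; 95% interval -0.63 to 0.28, unresolved), and the difference from MstTg was -1.99 ± 0.21 (adjusted p = 9e-07). Ifit1, which binds viral RNA, was at 3.69, 4.201, 3.52, 3.58 and 4.46 CPM, 3.29 to 5.66 with a median of 4.52 CPM in wild type and 7.69 to 24.8 with a median of 11.4 CPM in MstTg. Its difference from wild type was -0.20 ± 0.23 (interval -0.67 to 0.27, unresolved) and that from MstTg -1.85 ± 0.21 (adjusted p = 3.1e-06). Ifit3, of the same family, was at 4.72, 5.97, 4.35, 3.29 and 4.71 CPM, 3.02 to 5.57 with a median of 4.47 CPM in wild type and 10.8 to 25.4 with a median of 13.1 CPM in MstTg, with an interval inside the band (-0.40 to 0.51) and a difference from MstTg of -1.74 (adjusted p = 4.09e-06). Usp18, a negative regulator of interferon signalling, was at 2.65, 2.92, 2.31, 2.57 and 2.12 CPM, 1.78 to 3.198 with a median of 2.38 CPM in wild type and 5.16 to 10.6 with a median of 6.33 CPM in MstTg. It was near wild type (0.05, -0.33 to 0.44) and 1.48 below MstTg (adjusted p = 1.56e-06). Isg15, a ubiquitin-like modifier, was at 1.27, 1.94, 1.55, 1.43 and 1.26 CPM against 0.914 to 2.27 with a median of 1.79 CPM, unresolved against wild type (-0.70 to 0.30) and 1.38 below MstTg (adjusted p = 1.64e-04).

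Some interferon genes lay below wild type. The guanosine triphosphatase genes Iigp1, Gbp7 and Igtp, which are known to answer interferon gamma, fell by 1.0 ± 0.19, 0.59 ± 0.12 and 0.99 ± 0.20, and Rsad2, viperin, fell by 0.82 ± 0.18 (adjusted p = 4.5e-04). In MstTg the same 4 genes stood at -0.08, 0.20, -0.29 and 0.18 relative to wild type. Eif2ak2, the RNA-activated kinase PKR, was near wild type at 0.08 (-0.10 to 0.25) and 0.61 below MstTg (adjusted p = 1.36e-05).

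Most of the sensing and signalling genes around them were near wild type, as were 52.7% of all genes. The called share of all genes was 48.6%. Of 25 interferon signalling and nucleic acid sensor genes, 16 were near wild type, 4 were higher and 7 lower, and 8 were lower than in MstTg. Under library totals 10 were higher and 3 lower than wild type, and 17 were near it. Irf9, of that factor complex, was at -0.10 (-0.32 to 0.11) from wild type and -0.80 from MstTg (adjusted p = 5.39e-06). Ddx58, the RNA sensor RIG-I, was at -0.03 (-0.23 to 0.17) and -0.71 (adjusted p = 6.48e-06). The receptor gene Ifnar1 was near wild type at 0.01 (-0.12 to 0.13). Exceptions were Mavs, the adaptor of RNA sensing, which fell by 0.88 ± 0.09, and Irf5, which rose by 0.91 ± 0.13. The GAAANNGAA letters occurred in 4 of 22 promoter windows of this list (18.2%).

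Antigen presentation of MHC class I followed in part. Of 18 MHC class I and immunoproteasome genes, 11 were near wild type, 2 higher and 8 lower, and 9 were lower than in MstTg and none higher. Under library totals 5 were higher and 2 lower than wild type. Averaged over this list, log2 CPM relative to the wild-type mean was -0.25 to -0.03 in Mst1Gal3 and -0.25 to -0.07 in Gal3Ko, which overlapped. H2-K1, a class I heavy chain, was at 63.2, 63.7, 57.3, 68.5 and 59.6 CPM, 51.6 to 108 with a median of 70.4 CPM in wild type and 76.9 to 117 with a median of 108 CPM in MstTg. It was near wild type (-0.26 ± 0.12, adjusted p = 0.0793, interval -0.52 to -0.01) and 0.75 below MstTg (adjusted p = 1.92e-04). Without wild-type replicate 6 it was called lower than wild type, at -0.35. B2m, the light chain, likewise chosen after its values had been seen, was at 95.7, 107, 94.2, 87.7 and 98.99 CPM against 80.03 to 152 with a median of 100.4 CPM, near wild type (-0.41 to 0.18) and 0.72 below MstTg (adjusted p = 0.00237). Tap1, the peptide transporter, was at -0.10 (-0.35 to 0.14) from wild type and -0.67 from MstTg (adjusted p = 3.72e-04). The proteasome activator gene Psme1 and the immunoproteasome gene Psmb10 were not called against MstTg. Psme1 fell by 0.80 ± 0.06 and Psmb10 rose by 0.96 ± 0.10 over wild type, with differences from MstTg of -0.01 ± 0.06 (adjusted p = 0.9701) and 0.07 ± 0.09 (adjusted p = 0.762). GAAANNGAA occurred in 5 of 17 windows of this list (29.4%).

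**Figure D3:**
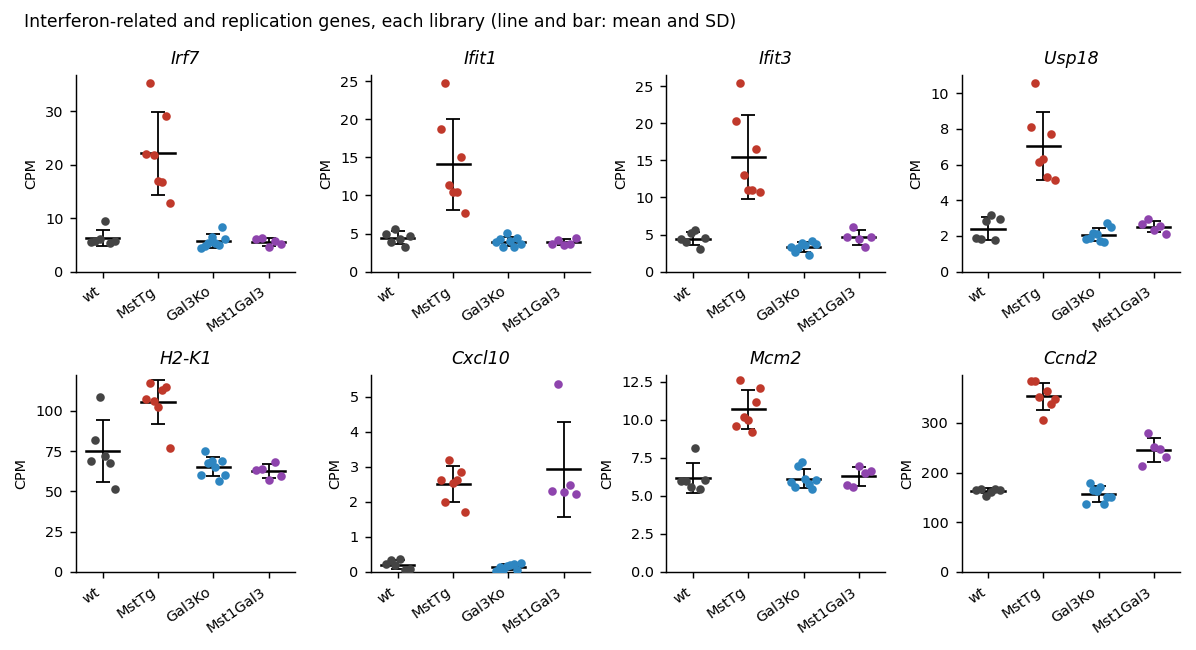
CPM per library (y axis) of Irf7, Ifit1, Ifit3, Usp18, H2-K1, Cxcl10, Mcm2 and Ccnd2 in the 4 groups (x axis), 1 point per library, with a line at the group mean and a bar of 1 SD. For Irf7, Ifit1, Ifit3 and Usp18 the Mst1Gal3 points overlap the wild-type points and lie below all MstTg points, whereas for Cxcl10 they lie with MstTg.

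Cxcl10 departed from the other interferon-inducible genes. This chemokine gene, which attracts T cells, was at 2.299, 5.35, 2.27, 2.49 and 2.23 CPM in Mst1Gal3, 0.0457 to 0.361 with a median of 0.212 CPM in wild type and 1.698 to 3.21 with a median of 2.62 CPM in MstTg. All Mst1Gal3 libraries were above all wild-type libraries, with replicate 2 the highest. The wild-type libraries held 1 to 7 counts and the Mst1Gal3 libraries 58 to 130, so no fold is given for this rise (adjusted p = 3.75e-11). The difference from MstTg was 0.22 ± 0.23 (adjusted p = 0.683). Other inflammatory mediators were divided, 9 of 41 being higher, 12 lower and 14 near wild type, or 12, 9 and 9 under library totals. Tnfrsf12a, the receptor of TWEAK, rose by 2.11 ± 0.16, Il15 and Lifr fell by 1.44 ± 0.10 and 0.99 ± 0.06, and Il1r1 (0.05, -0.13 to 0.22) and Osmr (0.03, -0.21 to 0.27) were near wild type. Cxcl14 fell by 1.41 ± 0.17 and was 1.18 above MstTg (adjusted p = 1.2e-04). Of 21 complement genes, 7 were higher, including the lectin-pathway protease Masp1 (2.29 ± 0.10), and 4 lower. Of 6 other galectin genes and the galectin-3 binding protein, 5 were near wild type. Lgals3bp (-0.07, -0.37 to 0.23) and Lgals9 (-0.20, -0.40 to 0.00) were 0.88 and 0.73 below MstTg (adjusted p = 1.92e-04 and 6.48e-06). Without wild-type replicate 1, Lgals9 was called lower than wild type (-0.25).

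**Figure D4:**
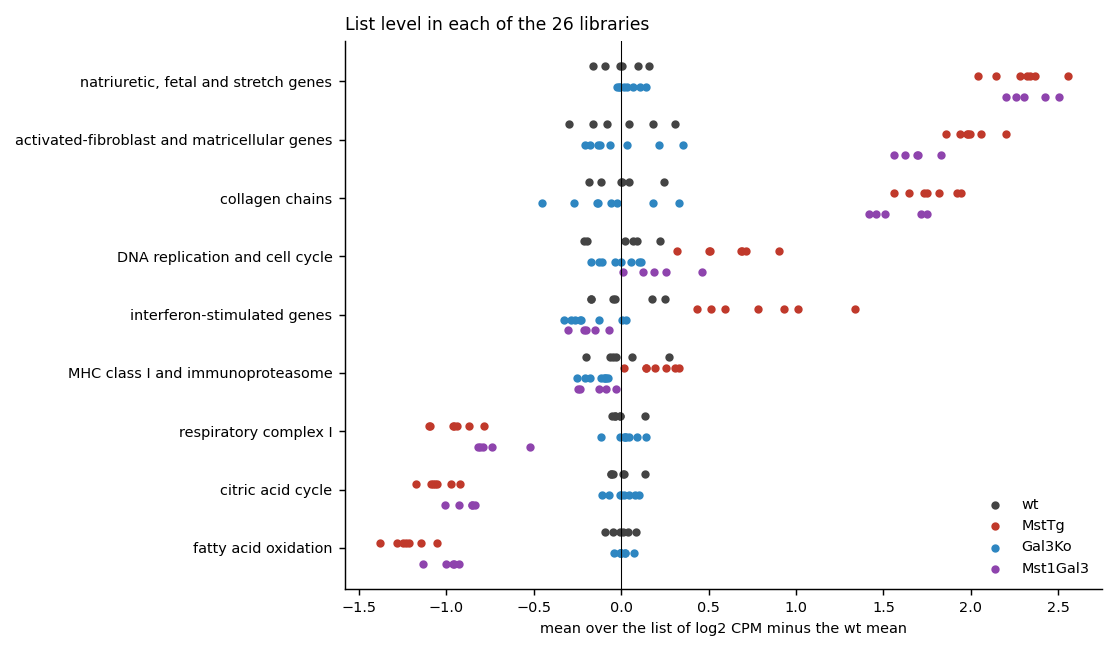
Mean over each of 9 lists of log2 CPM minus the wild-type mean of each gene (x axis) for each list (y axis), 1 point per library for all 26 libraries, coloured by group. The interferon-stimulated list lies at -0.30 to -0.07 in Mst1Gal3 against 0.43 to 1.34 in MstTg, while the fetal list lies at 2.2 to 2.5 against 2.04 to 2.56.

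Most cell cycle genes did not pass the test against wild type. Of 43 DNA replication and cell cycle genes, 8 were higher and 2 lower, and of the other 33 only 12 were near wild type. The median difference was 0.19, beside 0.69 in MstTg, and 8 genes were lower than in MstTg, a count that was 5 without Mst1Gal3 replicate 1 or 2 or MstTg replicate 2. Under library totals 19 of the list were higher than wild type. Mcm2, a subunit of the replicative helicase, was at 5.71, 5.601, 7.004, 6.53 and 6.65 CPM in Mst1Gal3, 5.49 to 8.15 with a median of 5.99 CPM in wild type and 9.23 to 12.6 with a median of 10.2 CPM in MstTg. It was near wild type (0.03, -0.19 to 0.24) and 0.76 below MstTg (adjusted p = 7.48e-06). Ccnd2, cyclin D2, was at 214, 280, 252, 248 and 231 CPM, 154 to 168 with a median of 165 CPM in wild type and 306 to 384 with a median of 352 CPM in MstTg, a rise of 0.59 ± 0.07 that was 0.53 below MstTg (adjusted p = 7.63e-06). Mcm6, of the same helicase, and Kif11, a spindle motor, rose by 1.07 ± 0.09 and 1.78 ± 0.15, while Cenpf, a kinetochore protein, fell by 2.32 ± 0.24. Cdk4 (0.06, -0.07 to 0.20) and Rrm1, of nucleotide synthesis (-0.07, -0.23 to 0.09), were near wild type.

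Stress genes were divided, with immediate early genes higher or not called. Of 22 immediate early genes, 12 were higher and 0 lower, with Atf3 at 259.5, 426, 221, 238 and 217 CPM against 2.89 to 12.4 with a median of 5.86 CPM in wild type (rise 5.43 ± 0.34, adjusted p = 2.09e-12), Egr2 up by 3.04 ± 0.28 and Ier5 by 1.87 ± 0.20. Of 37 integrated stress response and one-carbon genes, 12 were higher and 7 lower, including the phosphatase regulator Ppp1r15a (1.56 ± 0.12) and the mitochondrial folate enzyme Aldh1l2, which fell by 1.65 ± 0.12. The called share of that list, 19 of 37, was close to the 48.6% of all genes. The letters TGATGNAA of the ATF4 and CEBP composite element occurred in 9 of 36 promoter windows of that list (25%) and in 3.97% of all windows. Gdf15, a stress cytokine, was unresolved against wild type (-0.10, -0.64 to 0.45) and 0.97 below MstTg (adjusted p = 0.0155). Nupr1 and Mthfd1l rose by 1.78 ± 0.15 and 1.32 ± 0.32 and were 0.67 and 0.95 below MstTg (adjusted p = 8.24e-04 and 0.0331). Of 27 cytosolic heat shock genes, 10 rose and 2 fell, with the small heat shock genes Hspb1 at 2.68 ± 0.18 and Hspb7 at 1.17 ± 0.07, whereas Hspa4 (0.08, -0.04 to 0.20) and Hsp90ab1 (0.02, -0.16 to 0.20) were near wild type. Under library totals 16 of them were higher. Nox4, the NADPH oxidase that makes hydrogen peroxide, rose by 2.33 ± 0.18 and was 0.68 below MstTg (adjusted p = 0.00691). Of 39 antioxidant and NRF2 target genes, 18 were lower, among them the mitochondrial dismutase Sod2 (-1.15 ± 0.06), and 8 higher, among them Gpx3 (1.6 ± 0.09), while under library totals 11 were lower and 12 higher. Of 35 p53 and BCL2 family genes, 16 were higher, with Phlda3 at 2.53 ± 0.14 and Bcl2 at 1.13 ± 0.09, 10 were lower and 16 were near wild type, including Mcl1 (0.04, -0.08 to 0.16). Under library totals 5 of them were lower.

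Cytosolic ribosomal protein and constitutive proteasome genes lay mostly within 1.5-fold of wild type, and other lists of protein handling were divided. Of all genes, 52.7% were near wild type and 48.6% were called. Of 64 cytosolic ribosomal protein genes, 60 were near wild type, 1 lay above the band and 1 below it. On that list 8 were called higher and 6 lower, or 30 and 1 under library totals. Without wild-type replicate 2 the counts were 14 and 3, and without Mst1Gal3 replicate 4 the higher count was 5. Rpl3l, the striated-muscle paralog of Rpl3, was at 53.5, 41.6, 40.3, 46.1 and 47.4 CPM in Mst1Gal3, 137 to 165 with a median of 149.8 CPM in wild type and 23.1 to 32.6 with a median of 28.2 CPM in MstTg. It fell by 1.71 ± 0.09 (adjusted p = 4.8e-17), was 0.72 above MstTg (adjusted p = 7.84e-07), and Rpl3 rose by 0.90 ± 0.08. Of 34 constitutive proteasome genes, 31 were near wild type and none was displaced. On that list 7 were higher and 8 lower, or 13 and 4 under library totals, where 2 were displaced. Of 41 lysosome and autophagy genes, 28 were near wild type, 18 were higher, among them the cathepsins Ctsz (1.68 ± 0.10) and Ctsk (1.3 ± 0.13), and 8 were lower, or 4 under library totals. Of 29 endoplasmic reticulum chaperone genes, 21 were near wild type, 11 were higher and 8 lower. Among the lower ones, the chaperone Hspa5 fell by 0.70 ± 0.10 and Herpud1 by 1.35 ± 0.11. Of 22 FOXO and muscle ubiquitin ligase genes, 13 were near wild type, 3 were higher and 10 lower. Klhl41 and Klhl40, sarcomeric kelch proteins, rose by 3.11 ± 0.08 and 1.86 ± 0.11. Mitochondrial ribosomal proteins departed from the cytosolic ones, 57 of 72 being lower and 2 higher (median -0.50), with Mrps35 down by 0.92 ± 0.06. Under library totals 50 of that list were near wild type, beside 26 with TMM factors. Of 29 tubulin and microtubule genes, 16 rose and 6 fell, with the microtubule-associated proteins Map1a at 4.94 ± 0.09 and Map1b at 1.96 ± 0.08.

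Hippo pathway components, counted without the overexpressed kinase, were mostly within 1.5-fold of wild type, yet nearly as many as not were called higher. Of 31 Hippo pathway components, 21 were near wild type, 15 were higher and 3 lower, with Taok3, Dlg5 and Frmd6 up by 0.93 ± 0.06, 0.94 ± 0.07 and 0.57 ± 0.07. Averaged over the list, log2 CPM differed from the wild-type mean by 0.29 to 0.33 in Mst1Gal3 and by -0.05 to 0.07 in wild type, without overlap. Under library totals 25 of them were higher. Tead4, one of the TEAD factors, fell by 0.53 ± 0.13 and was 0.52 below MstTg (adjusted p = 0.007598), and Wwtr1, which encodes TAZ, was 0.20 below MstTg (adjusted p = 0.0276). Of 24 YAP and TEAD target genes, 14 were higher, 3 lower and 9 near wild type, and none was called against MstTg by edgeR, DESeq2 or limma-voom, with 4 at an unadjusted p under 0.05 in edgeR. Ctgf, a matricellular target of YAP and of TGF-beta, was at 289, 327, 283, 394 and 268 CPM against 30.9 to 66.5 with a median of 44.2 CPM and rose by 2.74 ± 0.18 (adjusted p = 2.04e-12). Fjx1 rose by 3.09 ± 0.23 and Nt5e by 1.43 ± 0.11, whereas Lats2, which YAP induces as feedback, was near wild type (0.04, -0.09 to 0.16). Ankrd1, a stretch-responsive ankyrin repeat protein and a target of YAP, was at 2166, 2628, 2391, 2806 and 1887 CPM, 459 to 755 with a median of 662 CPM in wild type and 2568 to 3352 with a median of 2812 CPM in MstTg, a rise of 1.87 ± 0.12 (adjusted p = 9.34e-14). Its upstream window is shown because it belongs to both the stretch and the YAP list. Capitals mark the TEAD letters GGAATG, which occurred in 7 of 19 promoter windows of the YAP and TEAD list (36.8%) and in 14.7% of all windows.
Ankrd1 (chr19:36119845-36120094, minus strand): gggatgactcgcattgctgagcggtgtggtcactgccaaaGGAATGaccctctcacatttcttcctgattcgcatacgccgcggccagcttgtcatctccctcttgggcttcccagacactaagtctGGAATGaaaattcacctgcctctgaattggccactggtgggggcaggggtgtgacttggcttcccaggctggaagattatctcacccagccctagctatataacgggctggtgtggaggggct
The window holds 2 matches. The letters AAGGTCA of the estrogen-related receptor site, searched the same way, occurred in 1 of 27 windows of fatty acid oxidation genes (3.7%), 3 of 25 of citric acid cycle genes (12%) and 3 of 35 of complex I genes (8.57%), beside 4.72% of all windows.

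Markers of cell types varied with the genotype. Of 15 quiescent-fibroblast markers 10 were higher and 2 lower, Pdgfra, the fibroblast receptor of PDGF, by 1.12 ± 0.08 and Pi16 by 1.6 ± 0.14. Scara5, a scavenger receptor of fibroblasts, went against the others. It was at 12.4, 10.3, 11.4, 12.8 and 12.3 CPM in Mst1Gal3, 19.6 to 32.8 with a median of 22.7 CPM in wild type and 3.21 to 6.39 with a median of 5.099 CPM in MstTg, a fall of 0.99 ± 0.12 that was 1.2 above MstTg (adjusted p = 3.08e-07). Of 15 endothelial markers 11 were lower and 0 higher, Pecam1, Tek and Cdh5 by -0.51 ± 0.05, -0.55 ± 0.06 and -0.68 ± 0.07, and their summed level was 1145 to 1299 CPM against 1614 to 1938 CPM in wild type. Of 13 smooth muscle and pericyte markers, 3 were higher, 4 lower and 6 not called. Their summed level was 1124 to 1262 CPM against 1368 to 1761 CPM in wild type. Their mean log2 CPM relative to the wild-type mean overlapped, at 0.09 to 0.27 against -0.71 to 0.32. The pericyte genes Abcc9, Kcnj8 and Rgs5 fell by 1.0 ± 0.07, 0.92 ± 0.09 and 0.97 ± 0.10, and Cspg4 rose by 1.99 ± 0.12, while Pdgfrb was near wild type (-0.03, -0.20 to 0.14). The 25 macrophage markers summed to 396.4 to 486.3 CPM against 384.7 to 660.4 CPM in wild type, and Adgre1 (0.03, -0.23 to 0.28) and Mrc1 (-0.05, -0.31 to 0.21) were near wild type. MHC class II genes fell, H2-Aa being at 6.06, 8.24, 5.79, 4.68 and 9.57 CPM against 17.6 to 42.9 with a median of 29.98 CPM (-2.18 ± 0.22, adjusted p = 5.39e-09), H2-Ab1 at -1.99 ± 0.22 and the invariant chain Cd74 at -1.94 ± 0.22, whereas Cd68, a lysosomal protein of macrophages, rose by 1.32 ± 0.15. The difference of H2-Aa from MstTg was -0.32 ± 0.22 (adjusted p = 0.474). None of the 6 red blood cell genes differed from wild type in edgeR, DESeq2 or limma-voom, and 0 had an unadjusted p under 0.05 in edgeR. The 2 neutrophil and 2 lymphocyte genes measured are too few to describe those cells.

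**Figure D5:**
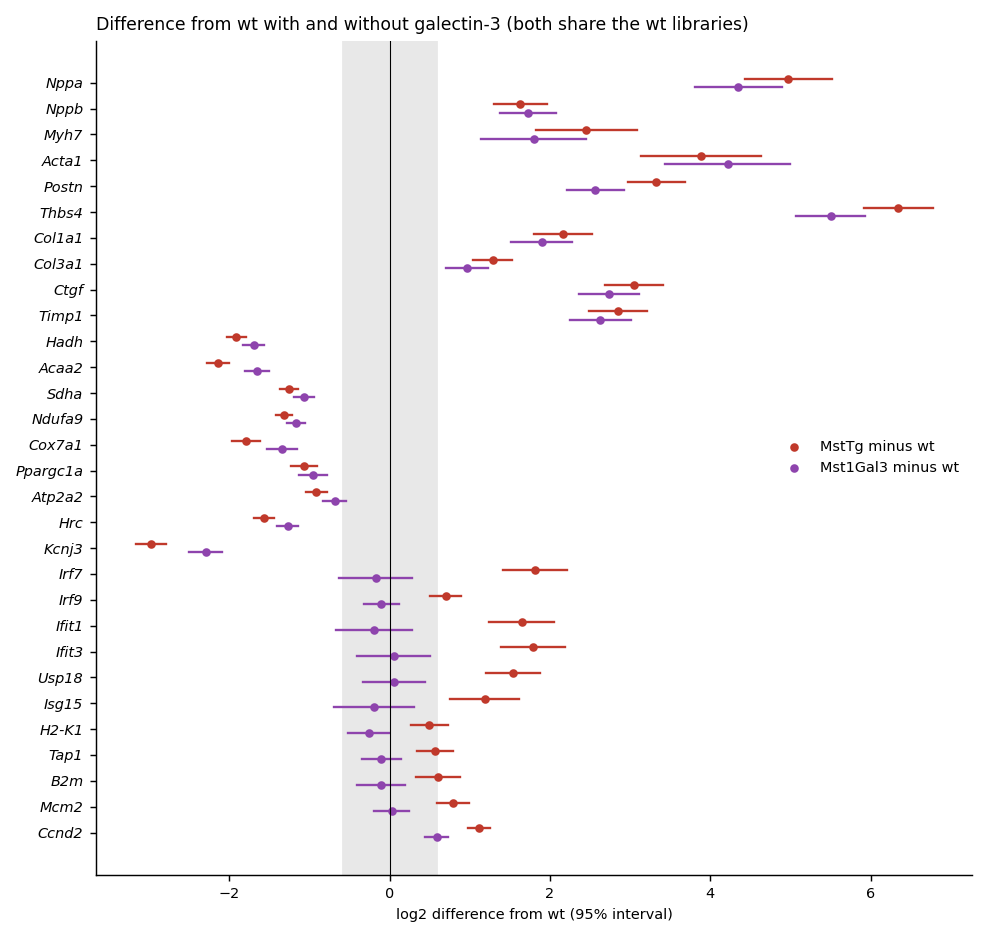
Log2 difference from wild type with its 95% interval (x axis) for the genes named on the y axis in MstTg and in Mst1Gal3, with a grey band of 1.5-fold on either side of 0. Both comparisons use the same wild-type libraries. Nppa and Thbs4 lie far to the right in both, Hadh and Kcnj3 to the left in both, while the Mst1Gal3 intervals of Ifit3 and Usp18 fall inside the band.

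Genes near Lgals3 were examined because a knockout line can carry a strain haplotype around the targeted gene. Within 20 Mb of Lgals3 on chromosome 14, 145 of 274 genes (52.9%) differed between Mst1Gal3 and wild type, beside 48.6% of all genes, 68 higher and 77 lower, and 161 (58.8%) were near wild type. In Gal3Ko, 25 of the 274 differed from wild type, of 54 over the whole table. Gm26782 (chromosome 14, 50870324 to 50880603 in GENCODE M21 on GRCm38), an uncharacterised transcript 3.5 Mb from Lgals3, was at 2.54, 2.76, 2.23, 2.23 and 2.23 CPM in Mst1Gal3, 1.401 to 2.56 CPM in Gal3Ko, 10.2 to 14.7 CPM in wild type and 11.3 to 17.5 CPM in MstTg. Every library of the 2 groups labelled with the knockout was below every library of the other 2. The difference was -2.42 ± 0.13 from wild type (adjusted p = 2.32e-16) and -2.47 ± 0.13 from MstTg (adjusted p = 3.61e-15). The proteasome subunit gene Psmb5, 7.25 Mb away, was at 11.2, 9.35, 10.5, 16.3 and 10.1 CPM against 14.9 to 21.5 with a median of 18.9 CPM and fell by 0.70 ± 0.14 (adjusted p = 9.88e-05). Ddhd1 and Arhgap22, chosen after their values had been seen, are a phospholipase gene at -1.78 Mb and a GTPase regulator gene at -14.15 Mb from Lgals3, the minus sign meaning smaller coordinates. Ddhd1 was near wild type (0.02, -0.16 to 0.20) and 1.06 below MstTg (adjusted p = 4.38e-10), and Arhgap22 was 0.51 above wild type and 2.56 below MstTg (adjusted p = 1.4e-15). For such genes the loss of galectin-3 and the flanking haplotype cannot be told apart. Bmp4, Irf9, Psme1, Lats2, Tnnc1, Scara5 and Myh6, described above, also lie within 20 Mb of Lgals3, and none of these 7 was called between Gal3Ko and wild type. Of the other called genes nearby with the smallest p, Mustn1 (4.41 ± 0.13), Atp8a2 (1.77 ± 0.10), Fdft1 (-1.2 ± 0.08) and Ephx2 (-0.80 ± 0.06) stood at 4.08, 1.6, -1.52 and -1.06 in MstTg and at -0.12, -0.18, 0.04 and -0.07 in Gal3Ko relative to wild type. Samd4, at -0.48 Mb, rose by 1.02 ± 0.06 and was also called in Gal3Ko (0.28, adjusted p = 0.0068). Its mean was 133.8 CPM in wild type, 221.7 in MstTg, 162.2 in Gal3Ko and 271.7 in Mst1Gal3. Sh3bp5 fell by 1.01 ± 0.06, with -0.19 in Gal3Ko (adjusted p = 0.194) and means of 41.27 CPM in wild type and 23.05 in MstTg.

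Ogdhl, an isoform of oxoglutarate dehydrogenase at -15.05 Mb from Lgals3, had the largest fall of all named genes. It was at 0.515, 0.659, 0.416, 0.759 and 0.719 CPM in Mst1Gal3 (13, 16, 11, 18 and 20 counts) against 154 to 212 CPM in wild type, and at 7.499 to 14.98 CPM in MstTg and 1.32 to 96.8 CPM in Gal3Ko. The Gal3Ko libraries were widely spread, and the difference of Mst1Gal3 from wild type was -8.22 ± 1.3 (adjusted p = 1.21e-05), that from MstTg -4.31 ± 1.35 (adjusted p = 0.06796). Away from chromosome 14, Rprl3 and Rprl2, copies related to the RNA of ribonuclease P, were present in the groups labelled with the galectin-3 knockout and nearly absent from the others. Rprl3 on chromosome 8 had 660 to 2369 counts in Mst1Gal3 and 667 to 1828 in Gal3Ko, against 0 to 2 in wild type and 0 to 3 in MstTg. Rprl2 on chromosome 3 had 60 to 144 and 40 to 134 counts against 0 to 2 and 0 to 1. Reads of near-identical copies may be split or misassigned in counting, so which copy these reads come from is uncertain.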

How the data were processed

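Total RNA of left ventricle was depleted of ribosomal RNA and made into stranded libraries with NEBNext kits, per the labels' protocols. Reads were processed with bcl2fastq 2.19.1.403, STAR and featureCounts on GRCm38, per the submitters' processing notes, while other versions, the annotation and the strand setting were not given in the sources used here. The authors deposited raw counts per gene, 1 column per library, with 0 columns of no sample and a lowest mean count of 10.0, so genes under that level are not analysed here. Positions came from GENCODE M21 for 15200 genes, and 49 had none.

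All 26 libraries entered 1 edgeR 4.0.16 fit (R 4.3.3, TMM factors, robust quasi-likelihood, 22 residual degrees of freedom), with Benjamini-Hochberg adjustment over 15249 genes and a threshold of 0.05, and filterByExpr removed 0 genes. The 95% intervals come from the same fit. CPM are counts scaled to TMM-adjusted library totals, and log2 CPM have a prior count of 0.5. At the lowest total, 1 count is 0.0497 CPM. The fit was tested on simulated data. Replicates of a group differed beyond sampling noise, with at least 7.65 chi-square per degree of freedom over 25 pairs, so none was a repeated library.

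The members and gene lists were chosen with earlier results of these data known. Named were the targeted genes, 12 fixed readouts, the 12 largest rises and 12 largest falls among called genes averaging 1 CPM or more with a symbol other than a gene-model name, per list up to 4 genes with the smallest p, up to 2 near wild type and up to 3 called against MstTg, and up to 8 called genes within 20 Mb of Lgals3. Genes outside this rule are marked in the text. Promoter windows of 300 bases, 250 before and 50 after a start, are RefSeq's on GRCm38.p6, matched by symbol. Motif shares cover only list members with a window. These were 31 of 44 interferon-stimulated, 19 of 25 interferon signalling and 15 of 18 MHC class I genes. They were 26 of 32 fatty acid oxidation, 19 of 22 citric acid cycle and 33 of 37 complex I genes. For YAP and TEAD targets they were 17 of 24, and for integrated stress response and one-carbon genes 31 of 37. Alternatives were DESeq2 1.42.0, limma-voom (limma 3.58.1), other scalings and filters, a replicate block, other bounds, and leaving out each library. Leaving out wild-type replicate 5 and Mst1Gal3 replicate 3 together was chosen after seeing the data. Counts on the wrong strand or split between copies cannot be detected from the table.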

Additional observations from a re-analysis of the deposited data

Results flagged for a closer look

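Dixon's test was applied within wild type and within Mst1Gal3 to 55 genes and 4 library measures, 118 sets of values, and 12 held 1 library apart from the others of its group. Chance alone sets about 1 in 20 apart. In wild type, the 10 highest genes took 44.2% of the counts in replicate 1. Replicate 2 had Acaa2 at 680.3 CPM and Scara5 at 32.8 CPM. Replicate 4 had Col1a1 at 213 CPM, Irf7 at 9.39 CPM and Mcm2 at 8.15 CPM, and replicate 6 had Stk4 at 26.1 CPM. In Mst1Gal3, replicate 2 had Atf3 at 426 CPM and Cxcl10 at 5.35 CPM, replicate 3 had Ndufa9 at 107 CPM, and replicate 4 had Col1a1 at 736.5 CPM and Psmb5 at 16.3 CPM. Each lay far from the rest of its group relative to the group's range.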

How the results depend on the processing

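Against wild type, 6785 to 8127 genes were called and 7453 to 8046 were near wild type over the alternatives other than the width of the band. The narrower planned band left 3731 genes near wild type and one of 2-fold 11964. Leaving out 1 library at a time gave 6986 to 7272 calls against wild type, 7710 to 7946 genes near it, and 469 to 1040 calls against MstTg, with 469 without Mst1Gal3 replicate 1 and 1040 without MstTg replicate 5. DESeq2 called 7455 and 913, limma-voom 7440 and 806, and library totals 8127 and 694 genes against wild type and MstTg. Samples with the same replicate number correlated at -0.034 to 0.236 over 5 pairs, and 1 of 5 Mst1Gal3 libraries correlated best with its own number, so the numbers were not taken as pairs. With the replicate block the counts were 7428 and 608, and 8013 genes were near wild type. Of 319 called genes among the 442 examined by name, 296 were called in the same direction under every alternative. Of the 123 not called, 67 stayed uncalled under every alternative, and library totals gave 41 a call in the direction they already had. Under library totals Acvr2a, Psma3 and Smad5 turned from just below to just above wild type (0.16, 0.16 and 0.14). The median log2 difference of all genes with that scaling was 0.19. Without both libraries with atrial genes, wild-type replicate 5 and Mst1Gal3 replicate 3, 6785 genes were called against wild type and 747 against MstTg. No MstTg or Gal3Ko library was left out there, though atrial transcripts reached 35.36 CPM in MstTg and 122.9 CPM in Gal3Ko. Genes with few counts were mostly unresolved, and 5 against 6 libraries with whole-ventricle RNA limit what can be said of single cell types.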
